A study of Homo sapiens with 18 samples.

Results

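The germinal centre marker genes described here are MME, LMO2, ELL3, SERPINA9, VPREB3, BCL7A and TCL1A, named as markers of germinal centre B cells and looked up by gene name in a deposited table of FPKM values (fragment counts scaled to transcript length and to library size). Of 8 genes named by the rule, 7 had a row of their own, among 26004 rows with a gene name, and each name had 1 row. The other gene, MYBL1, occurred only in a row joined with its neighbour VCPIP1, so its values are given apart and enter no count. All 7 rows passed the filter on low values (at least 1 FPKM in at least 3 libraries), which left 12201 rows to test.

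The study sequenced messenger RNA of 3 cultured human lines, SUDHL6, SUDHL4 and Farage, each labelled GCB-DLBCL, the germinal centre B cell type of diffuse large B-cell lymphoma. Each line had 3 libraries under a BCL6 inhibitor and 3 under DMSO, the solvent control, which gave 18 libraries in 6 groups. The labels name neither the compound nor its dose, and the exposure is stated as 12 h by the sample titles but as 24 h by the source names. All cells grew in RPMI1640 with 10% FBS, and nothing in the labels says whether replicates were separate cultures, so p-values measure only the spread between these libraries. Each line is a single tumour-derived culture, and a lower level in such a bulk library cannot separate fewer expressing cells from less RNA per cell.

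Germinal centres are the sites in lymph nodes and tonsils where activated B cells divide, mutate their antibody genes and are selected. BCL6 is a transcriptional repressor that B cells need to form and keep this state, and it holds down genes of cell cycle arrest, DNA damage response and plasma cell differentiation. Lymphomas that arise from germinal centre B cells keep much of the parent cell's expression programme, and several of the genes here are used in pathology or in expression classifiers to recognise that origin.

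The sequences just upstream of the transcription start are shown for the pair of genes whose RNA fell most on the mean of the 3 lines, ELL3 and VPREB3, and for SERPINA9, whose response differed between lines with the lowest adjusted p of the 7 genes. They come from RefSeq on GRCh38.p14, run 5′ to 3′ along the gene, and hold the 250 bases before the start at chr15:43776967-43777216 for ELL3, chr22:23754426-23754675 for VPREB3 and chr14:94476198-94476447 for SERPINA9, all on the minus strand. Capitals mark the octamer ATTTGCAT, the element bound by POU-domain factors in immunoglobulin promoters.
ELL3: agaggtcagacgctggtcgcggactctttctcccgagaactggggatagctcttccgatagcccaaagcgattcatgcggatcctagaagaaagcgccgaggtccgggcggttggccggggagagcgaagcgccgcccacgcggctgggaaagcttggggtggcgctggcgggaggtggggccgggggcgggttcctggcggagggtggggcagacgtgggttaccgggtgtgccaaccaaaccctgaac
VPREB3: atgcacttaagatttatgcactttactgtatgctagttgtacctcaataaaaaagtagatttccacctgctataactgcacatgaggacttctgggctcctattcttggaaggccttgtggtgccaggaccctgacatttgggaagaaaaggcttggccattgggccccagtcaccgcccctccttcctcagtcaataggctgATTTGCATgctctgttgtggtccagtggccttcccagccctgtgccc
SERPINA9: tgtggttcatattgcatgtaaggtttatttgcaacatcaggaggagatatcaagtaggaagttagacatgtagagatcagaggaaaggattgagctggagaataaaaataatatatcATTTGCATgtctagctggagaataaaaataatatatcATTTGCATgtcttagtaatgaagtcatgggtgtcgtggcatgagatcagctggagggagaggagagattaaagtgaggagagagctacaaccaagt
The SERPINA9 window held 2 octamers, starting 133 and 96 bases before the start, and the VPREB3 window held 1, starting 47 bases before it. Those of SERPINA9 lie in adjacent copies of the same stretch of sequence. Windows of 300 bases (250 before to 50 after the start) were found for 6 of the 7 genes, LMO2 being the one with no entry. On either strand, ATTTGCAT was present in 1.77% of all 35116 RefSeq windows of that length, and in a window of 2.19% of the 27305 genes they cover. Among the windows of these genes it was found only in SERPINA9 and VPREB3, 2 of the 6 genes with a window. The letters TTCCTAGAA, a core form of the BCL6 recognition site, were in 0.373% of all windows and in 0 of the 9 windows of these genes. Only exact matches were counted for either motif, so sites with a differing letter were not searched. Neither match says anything of binding in these cells.

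The labels were checked against lineage markers. MS4A1, which encodes the B cell marker CD20, measured between 436.4 and 968.2 FPKM per library under DMSO. Markers of other cell types were low, with sums of at most 1.48 FPKM over 6 T and NK cell genes and at most 3.62 FPKM over 7 monocyte genes in any library. The exception was SUDHL4, where 8 stromal and epithelial markers summed to between 52.2 and 56.1 FPKM under DMSO and between 16.3 and 17.6 under the inhibitor, carried by DCN and THY1, which were at 0 in SUDHL6. Read depth is not given in the sources used here. Depth relative to the other libraries, which could be read from 16 libraries, ran from 0.691 to 1.15 and was between 0.998 and 1.15 under DMSO and between 0.691 and 1.00 under the inhibitor. It could not be read for SUDHL6 replicate 3 under DMSO or under the inhibitor. In SUDHL6 the replicate 3 libraries of both treatments stood apart: across genes they correlated at 0.880 to 0.909 with the others of their group, against 0.947 and 0.962 between replicates 1 and 2. Where leaving out these replicate 3 libraries together changed a call of the 7 genes within a line, the result is given with and without them.

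Under DMSO the 7 genes were not a uniform signature of the lines. TCL1A, VPREB3, MME and ELL3 were lowest in Farage, LMO2 was highest in Farage, and SERPINA9 was lowest in SUDHL6. All 7 differed between lines (limma F test, Benjamini-Hochberg adjusted p from 3.24e-12 for TCL1A to 0.000635 for LMO2), against 83.5% of all rows tested, so a difference between lines was the common case. Of all rows, 63.9% differed between SUDHL4 and SUDHL6, 66.8% between Farage and SUDHL6 and 63.7% between Farage and SUDHL4.

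TCL1A, a co-activator of AKT signalling that B cells carry up to the germinal centre stage, showed the widest range. Its DMSO level was 346, 363 and 302 FPKM in SUDHL4, 165, 141 and 104 FPKM in SUDHL6, and 1.69, 1.68 and 1.44 FPKM in Farage. The group means in SUDHL4 and SUDHL6 were 209.9 and 85.0 times that of Farage, and the groups did not overlap. TCL1A was thus among the most abundant rows in SUDHL4 (rank 238 of 12201) and among the scarcer ones in Farage (rank 9990).

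VPREB3, a relative of the surrogate light chain that associates with immunoglobulin chains in the endoplasmic reticulum, had DMSO levels of 374, 378 and 330 FPKM in SUDHL4, 166, 199 and 231 FPKM in SUDHL6, and 19.0, 21.3 and 19.3 FPKM in Farage. SUDHL4 exceeded Farage 18.1-fold and SUDHL6 1.82-fold. MME, the cell surface peptidase CD10 used to type germinal centre lymphomas, measured 41.2, 36.5 and 39.0 FPKM in SUDHL4, 24.7, 25.8 and 16.6 in SUDHL6, and 2.71, 2.42 and 2.51 in Farage. The 3 lines kept the same order as for VPREB3 and TCL1A, without overlap, and SUDHL4 exceeded Farage 15.3-fold.

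SERPINA9 (centerin), a serine protease inhibitor named for its expression in germinal centre B cells, followed another order. Its DMSO level was 57.9, 58.1 and 55.5 FPKM in SUDHL4, 16.1, 18.1 and 19.0 in Farage, and 2.53, 3.16 and 4.47 in SUDHL6, so that SUDHL4 exceeded SUDHL6 16.9-fold. LMO2, a LIM-domain bridging protein of transcription factor complexes, was highest in Farage, with 151, 167 and 156 FPKM in Farage, 64.6, 68.3 and 55.3 in SUDHL4, and 18.3, 22.8 and 55.4 in SUDHL6. The SUDHL6 replicate 3 library lay just above the lowest SUDHL4 library, so these groups overlapped, and the log2 difference of SUDHL4 over SUDHL6 was 1.10 ± 0.45 (SE, limma adjusted p = 0.0451). That call was lost in 15 of the 18 fits that left out 1 library (adjusted p from 0.0537 to 0.177 in those), the extreme being the fit without SUDHL6 DMSO replicate 1 (log2 difference 0.79). The call was also lost with 0.1 added (0.0506) and with no filter on low values (0.0697). It was kept without SUDHL6 DMSO replicate 3 and without both SUDHL6 replicate 3 libraries. Over all alternatives the log2 difference ran from 0.79 to 1.57, with limma adjusted p from 0.000178 to 0.177.

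ELL3 and BCL7A varied least between lines. ELL3, a member of the ELL family of RNA polymerase II elongation factors, measured 88.4, 103 and 86.0 FPKM in SUDHL6, 116, 122 and 103 in SUDHL4, and 50.5, 53.7 and 52.0 in Farage under DMSO. SUDHL4 and SUDHL6 overlapped, with a log2 difference of 0.29 (95% interval -0.15 to 0.74, limma adjusted p = 0.238, or 0.0118 without SUDHL6 inhibitor replicate 1). BCL7A, a subunit of SWI/SNF chromatin remodelling complexes that is recurrently altered in B cell lymphoma, measured 84.0, 83.8 and 77.9 FPKM in SUDHL6 and 43.0 to 51.1 FPKM over the SUDHL4 and Farage libraries. Those last 2 lines overlapped (log2 difference of Farage over SUDHL4 -0.02, 95% interval -0.32 to 0.29, limma adjusted p = 0.938).

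**Figure D1:**
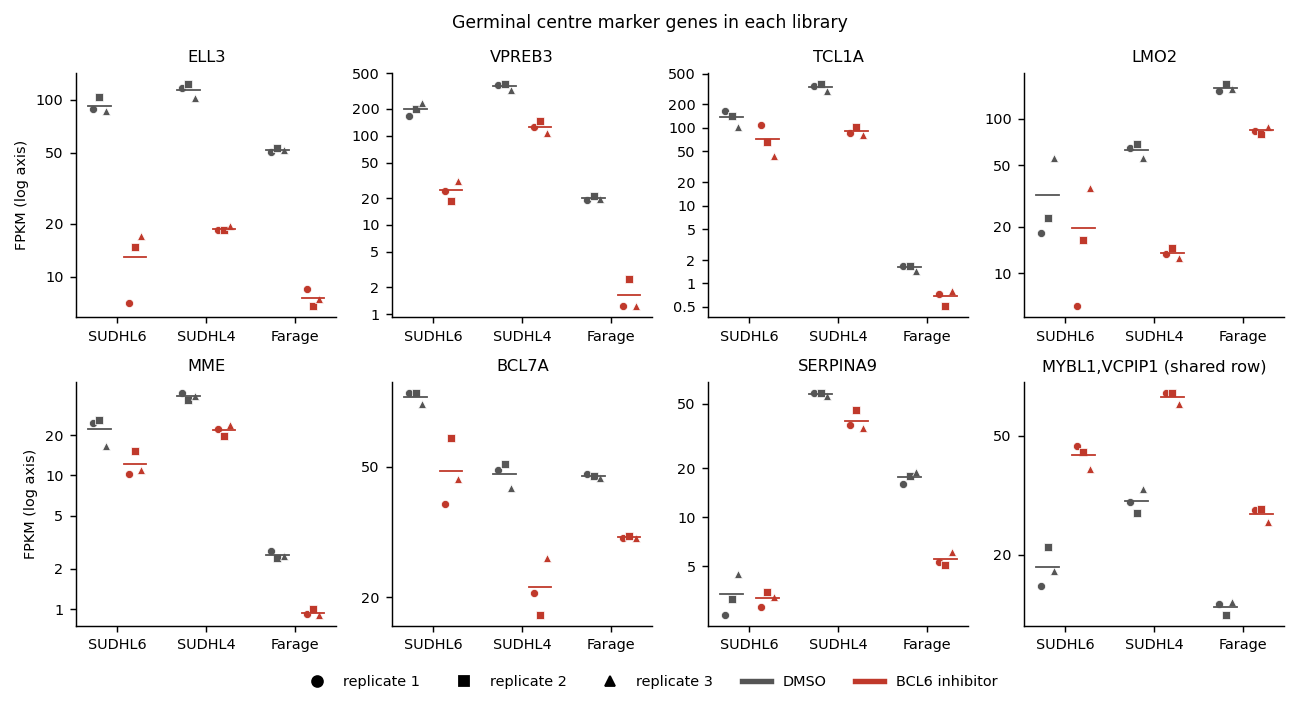
FPKM on log axes for the 7 genes and the shared MYBL1,VCPIP1 row in each of the 18 libraries, by line, with DMSO in grey and BCL6 inhibitor in red, symbols for replicate numbers and a bar at each group mean. ELL3 and VPREB3 fell in all 3 lines without overlap, TCL1A in Farage lay near 1 FPKM under both treatments, and the shared row rose in each line.

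Under the inhibitor, none of the 7 genes rose in any line, where 30.2% of all rows rose in SUDHL6, 29.6% in SUDHL4, 29.2% in Farage and 35.7% on average. In SUDHL4 all 7 fell, where 37.1% of all rows tested fell (limma, adjusted p under 0.05). In Farage 6 fell against 38.0% of rows, LMO2 being the one that did not pass, and in SUDHL6 5 fell against 33.7% of rows, LMO2 and SERPINA9 not passing. Averaged over the lines all 7 fell, against 44.9% of rows. The 7 genes were chosen with earlier results of these data known, so these counts describe the genes and are no independent test of them. The median log2 change of the 7 genes was -0.83 in SUDHL6, -1.53 in SUDHL4 and -0.91 in Farage, beside medians of -0.01, -0.04 and -0.07 over all rows tested. The share of the DMSO mean that was left lay between 12.4% and 93.8% for SUDHL6, 16.4% and 68.6% for SUDHL4, and 8.28% and 64.9% for Farage. Inhibitor and DMSO libraries did not overlap for all 7 genes in SUDHL4, where 42.3% of rows were lower without overlap, for all 7 in Farage (44.8% of rows), and for 4 in SUDHL6 (30.4% of rows). LMO2, SERPINA9 and TCL1A overlapped in SUDHL6.

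ELL3 fell by a like amount in every line. Its inhibitor levels were 7.13, 14.7 and 17.1 FPKM in SUDHL6, 18.3, 18.3 and 19.3 in SUDHL4, and 8.59, 6.86 and 7.47 in Farage, so all 9 inhibitor libraries lay below all 9 DMSO libraries. The level left was 14.0%, 16.4% and 14.7% of the DMSO mean in SUDHL6, SUDHL4 and Farage. On the log2(FPKM + 1) scale the changes were -2.82, -2.54 and -2.62 ± 0.21 (SE, n = 3 per group), with limma adjusted p of 6.33e-08, 8.85e-08 and 6.60e-08. Averaged over lines (-2.66), ELL3 ranked 16 from the most negative of the 12201 rows. The response was not shown to differ between lines (limma F test adjusted p = 0.692), and the interval for SUDHL4 minus SUDHL6 ran from -0.35 to 0.91. In the deposited table ELL3 shares its printed span (chr15:44038590-44116951, hg19) with 5 other rows, and reads where genes overlap could not be assigned by strand from the sources used here. The neighbouring PDIA3 row changed by -0.51 in SUDHL6, -0.02 in SUDHL4 and -0.11 in Farage (limma adjusted p = 0.00176, 0.919 and 0.421). Among the other rows of that span, SERINC4 was at 87.8%, 94.2% and 127% of the DMSO mean in SUDHL6, SUDHL4 and Farage. MFAP1 was at 118%, 133% and 139% in the same order. Values of the remaining rows of that span, MIR1282 and a row joining HYPK, SERF2 and SERF2-C15ORF63, are not given here. The part of overlapping reads in the ELL3 values was not tested.

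VPREB3 lost most of its RNA in SUDHL6 and Farage and less in SUDHL4. Inhibitor levels were 24.1, 18.6 and 31.1 FPKM in SUDHL6, 124, 145 and 107 in SUDHL4, and 1.24, 2.47 and 1.24 in Farage, each group wholly below its DMSO group. That left 12.4%, 34.7% and 8.28% of the DMSO mean. The log2 changes were -2.98, -1.53 and -3.01 ± 0.19 (SE), with limma adjusted p of 2.45e-08, 7.07e-06 and 9.35e-09. The difference between lines was itself past the threshold (limma F test adjusted p = 0.000587, against 52.5% of all rows): SUDHL4 responded by 1.45 log2 units less than SUDHL6 (adjusted p = 0.00123) and Farage by 1.48 units more than SUDHL4 (adjusted p = 0.000781). Responses differed in 31.9% of all rows between SUDHL4 and SUDHL6, in 34.8% between Farage and SUDHL6 and in 36.3% between Farage and SUDHL4. SUDHL6 and Farage differed by -0.03 (95% interval -0.62 to 0.56). The Farage change is understated, because 1 is added to inhibitor levels near that size, and with 0.1 added it was -3.59. Over all alternatives the difference of Farage and SUDHL6 ran from -0.56 to 0.15 and never passed (lowest limma adjusted p = 0.22). Even after the fall, SUDHL4 under inhibitor held more VPREB3 RNA than Farage under DMSO.

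TCL1A fell in all 3 lines, most in SUDHL4. There the inhibitor levels were 87.1, 102 and 80.6 FPKM, 26.7% of the DMSO mean, with a log2 change of -1.90 ± 0.24 (SE, limma adjusted p = 7.53e-06). In SUDHL6 the inhibitor libraries measured 108, 66.7 and 43.5 FPKM beside 165, 141 and 104 under DMSO, and the highest inhibitor library lay above the lowest DMSO library. Within each replicate number the inhibitor library was the lower one, and the change was -0.97 (limma adjusted p = 0.0029). When SUDHL6 was fitted without the other lines this call was lost (adjusted p = 0.0836). In Farage, where TCL1A was scarce, it went from 1.69, 1.68 and 1.44 FPKM to 0.740, 0.516 and 0.799, without overlap. The change of -0.63 there (limma adjusted p = 0.0329) understates the fold, because 1 is added to levels of that size: the group means fell to 42.6% of DMSO, and with 0.1 added the change was -1.14. The call in Farage was lost with median-ratio scaling (adjusted p = 0.0586) and when any Farage library other than inhibitor replicate 3 was left out (adjusted p from 0.05 to 0.099 in those 5 fits). The response differed between lines (limma F test adjusted p = 0.0169), by 1.26 log2 units between Farage and SUDHL4 (adjusted p = 0.0104), but with 0.1 added to each value the F test gave an adjusted p of 0.0957. SUDHL4 minus SUDHL6 was -0.93 (adjusted p = 0.0538). This difference passed with the replicate number as a block (0.00389), without both SUDHL6 replicate 3 libraries (0.00494), without SUDHL6 inhibitor replicate 3 (0.00329) or SUDHL6 DMSO replicate 1 (0.0381) alone, and with joined rows and small RNA left out of the test (0.0412).

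TCL1A lies on chromosome 14 at 96174787 to 96180533 (hg19), 1231927 bases from SERPINA9 and next to a row that joins its relative TCL1B with the non-coding TCL6. That joined row fell in SUDHL6, from 76.1, 74.6 and 64.2 FPKM to 22.3, 18.7 and 15.7, and in SUDHL4, from 5.23, 5.57 and 4.35 to 1.33, 1.30 and 1.43. In Farage it rose from 1.40, 1.54 and 1.56 FPKM to 6.87, 8.72 and 7.80 (log2 changes -1.87, -1.36 and 1.81, limma adjusted p = 1.71e-08, 1.46e-07 and 9.25e-09). Neighbouring members of the TCL1 locus therefore moved together in SUDHL6 and SUDHL4 and in opposite directions in Farage, with the caveat that TCL1B and TCL6 cannot be told apart in that row.

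LMO2 fell in SUDHL4 from 64.6, 68.3 and 55.3 FPKM to 13.2, 14.6 and 12.6, leaving 21.5% of the DMSO mean (log2 change -2.13 ± 0.45 SE, limma adjusted p = 0.000717). In Farage it measured 83.0, 80.1 and 88.8 FPKM under the inhibitor, wholly below the DMSO libraries at 151 to 167, with 53.1% left. The Farage change of -0.91 nevertheless missed the threshold (limma adjusted p = 0.0909), as all groups share 1 estimate of the spread per gene and SUDHL6 varied widely. In a fit of Farage alone the same change had an adjusted p of 2.94e-05, and without the SUDHL6 replicate 3 libraries it had 0.00374; it also passed without SUDHL6 inhibitor replicate 1 (0.0229) or replicate 3 (0.0304) alone. SUDHL6 LMO2 went from 18.3, 22.8 and 55.4 FPKM to 6.15, 16.5 and 35.8, lower within each replicate number but overlapping as groups (log2 change -0.83, limma adjusted p = 0.123). In SUDHL6 the replicate 3 libraries of both treatments deviated together, while replicates 1 and 2 were not shown to pair by number. With the replicate number as a block in every line, the same change had a limma adjusted p of 0.00194. Without both replicate 3 libraries it was -0.94 (adjusted p = 0.012), without inhibitor replicate 3 alone it was -1.40 (adjusted p = 0.00551), and without inhibitor replicate 1 it was -0.22 (adjusted p = 0.637). A difference of the LMO2 response between lines was not shown without the block (limma F test adjusted p = 0.159) and passed with it (0.00282), without both SUDHL6 replicate 3 libraries (0.0112), or without SUDHL6 DMSO replicate 3 (0.0467) or inhibitor replicate 1 (0.0115) alone.

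MME and BCL7A fell moderately in each line. MME went to 10.2, 15.1 and 11.0 FPKM in SUDHL6, 22.2, 19.6 and 23.7 in SUDHL4 and 0.916, 1.01 and 0.912 in Farage, without overlap with DMSO in any line. Its log2 changes were -0.82, -0.81 and -0.86 ± 0.15 (SE; limma adjusted p = 0.000221, 0.000236 and 0.000129). No difference between lines was shown (limma F test adjusted p = 0.969; SUDHL4 minus SUDHL6 95% interval -0.44 to 0.47), although in Farage 37.2% of the DMSO mean was left against 54.3% and 56.2% in SUDHL6 and SUDHL4, since the added 1 weighs more at low levels. With 0.1 added, the Farage change was -1.34 beside -0.87 and -0.83.

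BCL7A went to 38.6, 61.3 and 45.9 FPKM in SUDHL6, 20.6, 17.7 and 26.4 in SUDHL4, and 30.2, 30.8 and 30.4 in Farage, again without overlap. The shares left were 59.3%, 45.2% and 64.9%, and the log2 changes were -0.77, -1.12 and -0.61 ± 0.14 (SE; limma adjusted p = 0.00029, 7.23e-06 and 0.0017). Its response was not shown to differ between lines (limma F test adjusted p = 0.104), but the test passed when SUDHL6 inhibitor replicate 1 (0.0342), SUDHL6 inhibitor replicate 2 (0.0373) or SUDHL4 inhibitor replicate 3 (0.0239) was left out.

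SERPINA9 responded unequally in the lines. In Farage it fell from 16.1, 18.1 and 19.0 FPKM to 5.31, 5.13 and 6.16, leaving 31.2% (log2 change -1.52 ± 0.14 SE, limma adjusted p = 2.25e-07). In SUDHL4 it fell from 57.9, 58.1 and 55.5 to 36.8, 45.5 and 35.4, leaving 68.6% (-0.54, adjusted p = 0.00277). In SUDHL6 the inhibitor libraries at 2.83, 3.46 and 3.25 FPKM lay inside the DMSO range of 2.53 to 4.47 (-0.05, 95% interval -0.34 to 0.24, limma adjusted p = 0.788). The test of the difference passed (limma F test adjusted p = 8.51e-05), with Farage 1.47 log2 units below SUDHL6 (adjusted p = 4.74e-05) and 0.98 below SUDHL4 (adjusted p = 0.00121). SUDHL4 and SUDHL6 differed by -0.49 (adjusted p = 0.0673). That last difference passed with the replicate number as a block (0.0343), with upper-quartile scaling (0.0425), without both SUDHL6 replicate 3 libraries (0.00956), and without SUDHL6 DMSO replicate 3 (0.00575), SUDHL6 inhibitor replicate 1 (0.0497) or SUDHL4 inhibitor replicate 2 (0.0333).

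**Figure D2:**
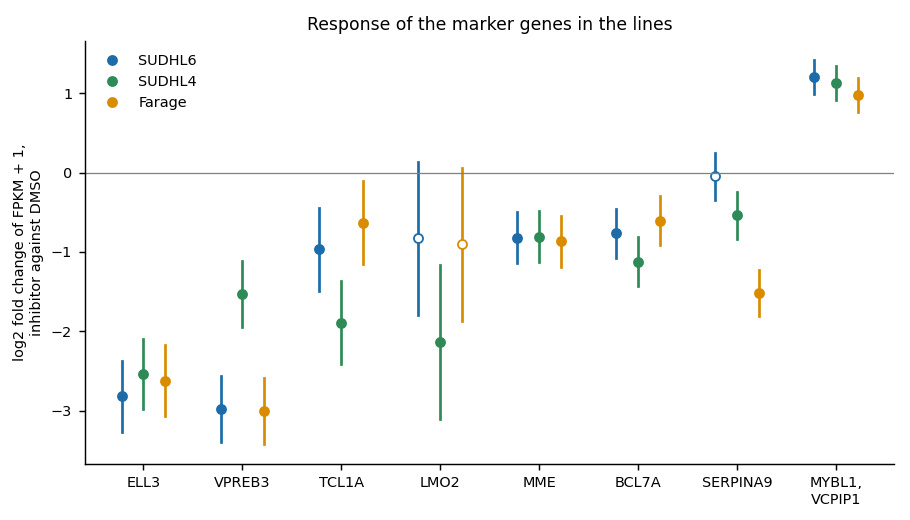
Log2 change of FPKM + 1, inhibitor against DMSO, for each of the 7 genes and the joined MYBL1,VCPIP1 row in SUDHL6, SUDHL4 and Farage, with 95% intervals from limma and open circles where the adjusted p missed 0.05. ELL3 and MME have like values in the lines, VPREB3 fell less in SUDHL4 (-1.53) than in SUDHL6 and Farage, and SERPINA9 ranges from -0.05 to -1.52.

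The row that joins MYBL1, a MYB-family transcription factor used as a germinal centre marker, with VCPIP1, a deubiquitinase, moved the other way. It rose from 15.7, 21.3 and 17.6 FPKM to 46.1, 44.2 and 38.7 in SUDHL6, from 30.1, 27.5 and 33.3 to 69.4, 69.2 and 63.7 in SUDHL4, and from 13.6, 12.6 and 13.9 to 28.1, 28.4 and 25.7 in Farage. Groups did not overlap, and the log2 changes were 1.20, 1.13 and 0.98 ± 0.10 (SE; limma adjusted p = 1.70e-07, 1.90e-07 and 8.11e-07). Which of the joined genes carried the rise cannot be told from the row.

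BCL6, the target of the compound, was read from its own row. It fell in SUDHL4 from 132, 139 and 123 FPKM to 72.6, 71.9 and 72.5 (log2 change -0.85, limma adjusted p = 1.24e-05). In SUDHL6 it measured 74.0, 99.8 and 72.8 FPKM under DMSO and 61.8, 84.8 and 68.4 under the inhibitor (-0.19, adjusted p = 0.161), and in Farage 54.5, 53.6 and 53.3 against 60.5, 60.6 and 64.6 (0.20, adjusted p = 0.142). Blocked by replicate number, the BCL6 change passed in SUDHL6 (adjusted p = 0.0131), where each inhibitor library was below the DMSO library of its number, and it passed there without inhibitor replicate 2 (-0.32, 0.0191). In Farage, where the inhibitor libraries lay wholly above DMSO, it passed in a fit of that line alone (0.00227), with the block (0.0104) and with median-ratio scaling (0.0496).

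Other genes of the germinal centre programme did not move in one direction. Of 24 listed, 19 were tested, and averaged over the lines 11 fell, 7 rose and 1, GCSAM, did not pass, with a median of -0.28. Over all rows 44.9% fell and 35.7% rose on this mean, so these counts, and those of the lists that follow, are given as descriptions and not as results about the lists. PAX5, the transcription factor of B cell identity, fell by 1.97 on the log2 scale, ASB13 by 1.65 and MYB by 1.39, while KLHL6, a ubiquitin ligase adaptor, rose by 1.29 (limma, adjusted p of at most 5.99e-07 for these genes). The B cell marker MS4A1 fell too, by 1.09 in SUDHL6, 0.46 in SUDHL4 and 0.95 in Farage on the log2 scale (limma adjusted p = 2.44e-06, 0.00412 and 7.78e-06). Its level per library lay between 593.6 and 729.6 FPKM under DMSO and between 244.7 and 385.9 under the inhibitor in SUDHL6. The ranges were 912.1 to 968.2 and 643.6 to 703.6 FPKM for SUDHL4, and 436.4 to 470.0 and 228.3 to 240.8 FPKM for Farage. The part of this in the results for the 7 genes was not tested.

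Relatives of the 7 genes moved unequally. Of 16 listed, 7 were tested, and 4 fell and 2 rose on average. ELL2, the elongation factor of plasma cells, rose by 0.72 where ELL3 fell, and BCL7B rose by 0.56 where BCL7A and BCL7C fell, BCL7C by 1.47 (limma adjusted p = 5.23e-09, 1.28e-06 and 8.72e-10). LMO4 changed by -0.84 and MYBL2 by -0.73. ECE1, related to MME, changed by -0.41 (adjusted p = 0.0998). Of 8 precursor B cell genes 3 were tested: VPREB1, the surrogate light chain gene, changed by -0.94 and SOX4 by -0.72, while IGLL1 at -0.36 did not pass (limma adjusted p = 0.103). VPREB1 was listed at 0 in all Farage libraries, DMSO included, so its change could be read only in SUDHL6 and SUDHL4.

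Genes by which expression classifiers recognise the activated B cell type of the disease were given as a contrast. Of 8 listed, 7 were tested, and on average 5 fell and 2 rose. IRF4, a transcription factor of activated and plasma cells, rose by 1.64, and TNFRSF13B, CYB5R2 and CREB3L2 changed by -0.75, -0.50 and -0.32 (limma adjusted p = 2.33e-05, 0.025, 0.00301 and 2.31e-07). The mean for TNFRSF13B rests on SUDHL6, where it changed by -2.18, because its DMSO level was listed at 0 in each SUDHL4 library and was at most 0.157 FPKM in Farage. CREB3L2 changed most in Farage (-0.77), and its DMSO level was at most 0.0319 FPKM in SUDHL6 and 0.225 FPKM in SUDHL4. Under DMSO, CYB5R2 was at most 0.0853 FPKM in Farage and IRF4 at most 0.245 FPKM in SUDHL4. Of 5 reference genes of such classifiers 3 were tested, and these moved as well: R3HDM1 by -0.40, UBXN4 by 0.64 and TRIM56 by 0.33.

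**Figure D3:**
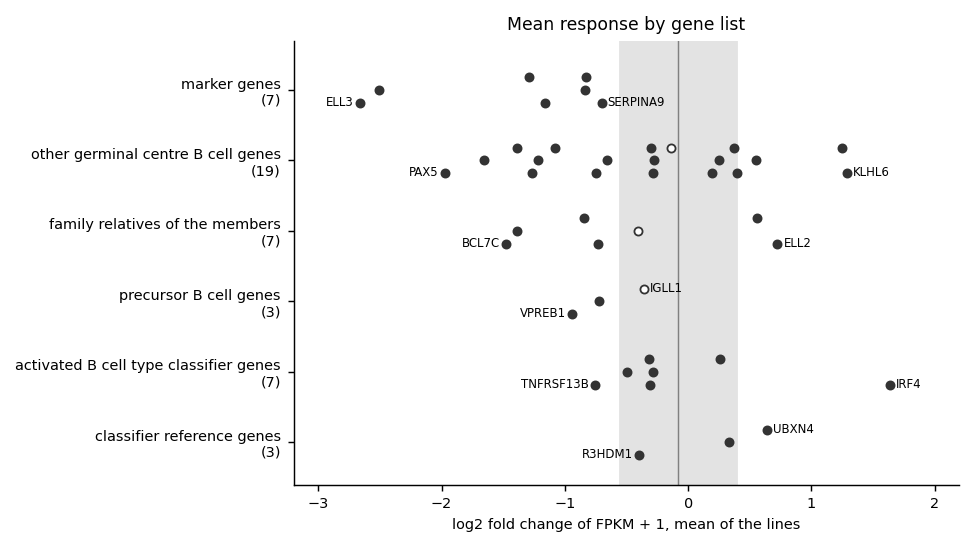
Mean log2 change over the 3 lines for each tested gene of 6 lists, with the number tested in brackets; filled circles passed an adjusted p of 0.05, the line is the median of all 12201 rows (-0.08) and the grey band their middle 50%, from -0.55 to 0.39. The 7 marker genes lie left of the band, and the other germinal centre, family and activated B cell type genes lie on both sides of it.

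Across the 18 libraries, the profile of TCL1A was most like that of MME among the 7 genes (Pearson's r of log2(FPKM + 1) 0.981), and VPREB3 correlated with both (0.933 with MME, 0.885 with TCL1A). LMO2 correlated at -0.63 with TCL1A and -0.57 with MME, and SERPINA9 at -0.44 with BCL7A. These values describe 18 points that fall into 6 groups and share line and treatment. Among 6621 other genes, those of highest r were HLA-DOA for MME (0.991), KDM1B for ELL3 (0.991), MAP3K7CL for SERPINA9 (0.990), LYRM4 for TCL1A (0.985), PET100 for VPREB3 (0.976) and HDAC2 for LMO2 (0.970). HLA-DOA, an MHC class II accessory chain, had group means of 39.3 and 19.4 FPKM in SUDHL6, 54.4 and 31.4 in SUDHL4 and 3.82 and 1.40 in Farage under DMSO and inhibitor. KDM1B, a histone demethylase, had 19.7 and 5.07, 19.6 and 6.61, and 10.8 and 3.38.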

How the data were processed

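Messenger RNA libraries of 3 lymphoma lines under DMSO or a BCL6 inhibitor (3 per group) were analysed from 1 table of FPKM values that the authors deposited. Per the submitters' processing notes, CASAVA 1.8, TopHat2 and Cufflinks were used with hg19. The sources used here give no absolute depth, strandedness or read filter. Coordinates of rows are hg19 spans of the table, 1-based, and may cover several genes.

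Rows that reached 1 FPKM in 3 or more of 18 libraries (12201 of 34410) were put on a log2(FPKM + 1) scale, and a model with a mean for each group and an intensity trend was fitted (limma 3.58.1, R 4.3.3). P-values were adjusted by Benjamini-Hochberg over all these rows, with a threshold of 0.05. A fold change on this scale understates that of low genes. The steps were tested on simulated data. Relative depth came from 5 unnamed rows of 56 bases whose values were whole multiples of 1 step within a tolerance of 0.02.

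Whether replicate numbers pair inhibitor and DMSO libraries was checked by the correlation of their deviations from the group means: same-numbered pairs gave 0.309, 0.366 and 0.664 in SUDHL6, and -0.0579 to 0.0767 in SUDHL4 and Farage. In SUDHL6 the numbers 1 and 2 also correlated with each other (0.271 and 0.320). The check thus set replicate 3 apart in SUDHL6 but could not tell whether 1 pairs with 1 and 2 with 2. It showed no pairing in SUDHL4 and Farage. This was read from the data and not from the labels. Fits with the replicate number as a block held its terms in every line, so their adjusted p-values assume pairing in all lines.

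The members and lists were chosen with earlier results of these data known. Named genes are the members, BCL6, for each member the gene of highest correlation (mean level 5 FPKM or more), and from each list up to 4 genes of largest mean change among those called, plus all tested genes of lists with 5 or fewer. PDIA3, SERINC4, MFAP1, VPREB1 levels per line and the joined MYBL1 and TCL1B rows were added after their values were seen. A pair of genes that the rule names is not reported here. Alternatives covered the added constant, the filter, scaling, joined rows, the trend, single-line fits, the replicate block and leaving libraries out.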

Additional observations from a re-analysis of the deposited data

Results flagged for a closer look

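A difference of the response to the inhibitor between lines passed the limma F test for SERPINA9 (Benjamini-Hochberg adjusted p = 8.51e-05; log2 changes -0.05 in SUDHL6, -0.54 in SUDHL4 and -1.52 in Farage), for VPREB3 (adjusted p = 0.000587; -2.98, -1.53 and -3.01) and for TCL1A (adjusted p = 0.0169; -0.97, -1.90 and -0.63). Such a difference was found for 52.5% of all rows tested.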

How the results depend on the processing

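Over all alternatives, values of the member genes kept their side of the threshold in 2307 cases, 38 newly passed and 28 no longer passed. Direction was kept wherever either fit passed, but some changes that passed in neither fit changed sign. SERPINA9 in SUDHL6, for example, ran from -0.19 to 0.12. The number of members whose response differed between lines was 3. It was 2 with 0.1 added in place of 1, 4 with the replicate block, and from 3 to 5 when single libraries were left out (5 without SUDHL6 inhibitor replicate 1). With the joined MYBL1,VCPIP1 row counted as a member, an alternative chosen after seeing the data, 1 member rose in SUDHL6, SUDHL4, Farage and on average, in place of 0. EZH2 in SUDHL6 changed by 0.02, and by -0.28 to 0.20 when single libraries were left out (-0.28 without inhibitor replicate 3, limma adjusted p = 0.0426); the cause was not tested. With the replicate block, LMO2 passed in SUDHL6 (-0.83, adjusted p = 0.00194) and Farage (-0.91, 0.00111), and its difference between lines passed (0.00282); no other call of a member's change within a line was altered by the block. The block was fitted in every line at once, although pairing by number was not shown in SUDHL4 and Farage. In SUDHL6 the check set only replicate 3 apart. Scaling moved the median of all rows by under 0.1 on the log2 scale. Unknown depth limits what can be said of TCL1A and MME in Farage, which lay near 1 FPKM, and of VPREB3 in Farage under the inhibitor.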
